A study of Mus musculus with 88 samples.

Results

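The data described here are from 8 RNA-seq libraries of mouse embryonic stem cell (ESC) lines, 4 lines of each of a pair of crosses kept in 2i medium. The libraries were taken by their labels: every RNA-seq library labelled 2i-ESC whose strain is given as F1 of 129X1/SvJ and MSM/Ms (129/MSM) or as F1 of 129X1/SvJ and C57BL6 (129/B6). They are 8 of the 26 RNA-seq libraries and of the 88 samples in all. The other RNA-seq libraries hold ESC lines in serum or in modified 2i media and fibroblasts, and 62 samples are bisulfite sequencing, not analysed here.

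Each cross is represented by 2 XX and 2 XY lines, all at passage 3 and all prepared with a stranded mRNA kit. The titles of the 129/B6 libraries call the medium c2i, their descriptions 2i, and its recipe is not in the labels. The 129/MSM lines are 15 and 2 (XX) and 20 and 23 (XY), the 129/B6 lines are c3 and c4 (XX) and c2 and c6 (XY), and lists of 4 values below follow this order. Both groups carry a genome copy from 129X1/SvJ, so the other copy, MSM/Ms or C57BL6, is what the crosses differ in by design. Cross and processing coincided. All 183 Y-linked and all 13 mitochondrial loci read 0 in each of the 10 libraries of the 129/MSM cross, XY lines included, whereas mitochondrial loci made up 0.821% to 1.39% of the summed values in the 129/B6 lines in 2i. Cross and processing therefore cannot be told apart in any result below, and the Y-linked and mitochondrial loci were left out. Each line is 1 derivation, and p-values measure only the spread between these lines.

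The 2i medium holds ESCs in a naive state close to that of the preimplantation epiblast by inhibiting MEK, which blocks ERK signalling, and GSK3, which raises Wnt signalling. Naive cells co-express a network of transcription factors such as Pou5f1, Nanog, Esrrb and Zfp42, keep both X chromosomes active in XX lines and hold little DNA methylation in 2i. MSM/Ms descends from Japanese wild mice and is genetically far more distant from 129X1/SvJ than C57BL6 is. The 129/MSM lines therefore carry many more sequence differences between their genome copies. The processing notes name mm10 as the genome build. Whether reads of both crosses map to it equally well was not tested, so lower values in 129/MSM can hold a part from mapping.

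Values are RPKM, reads scaled to transcript length and to the mapped reads of the library, and tests ran on log2(RPKM + 1), on which the change of genes with few reads is understated. The summed RPKM was 750032 to 802360 in the 129/MSM lines and 793372 to 883490 in the 129/B6 lines (exact two-sided permutation p = 0.0571, n = 4 and 4). Between 11461 and 11904 genes reached 1 RPKM in 129/MSM and between 11298 and 11411 in 129/B6 (exact two-sided permutation p = 0.0286, the smallest that 70 arrangements allow). Log2 values correlated across genes at 0.972 to 0.990 between lines of the same cross and sex chromosomes and at 0.954 to 0.965 between lines of different crosses with the same sex chromosomes. The 6 ESC markers summed to 3232 to 3995 RPKM in 129/MSM and 2656 to 3100 RPKM in 129/B6, and Pou5f1 lay between 1469 and 1837 RPKM in all 8 lines. Markers of trophectoderm summed to at most 8.79 and 16.7 RPKM and those of primitive endoderm to at most 4.40 and 2.71 RPKM. The 4 two-cell markers all read 0 in the 129/B6 lines and summed to at most 0.991 RPKM in 129/MSM. The 6 fibroblast markers summed to 13.3, 7.44, 46.2 and 6.33 RPKM in the 129/MSM lines and to 3.79, 4.17, 2.199 and 0.802 RPKM in the 129/B6 lines, with no overlap between the crosses. In such bulk samples, fewer cells of a type and less RNA per cell cannot be told apart. In the 3 fibroblast libraries of the series the same markers summed to 7248 to 18804 RPKM, so the highest line, XY line 20, held 0.638% of the lowest fibroblast level.

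Genes at every level of expression differed between the crosses. Of 12324 genes tested in 2i, 2117 (17.2%) were called between the crosses at an adjusted p under 0.05 (limma with a term for XX or XY and Benjamini-Hochberg adjustment). Of these, 1167 (9.47%) were higher and 950 (7.71%) were lower in 129/MSM. The split was 998 higher and 1010 lower after quantile normalization and 1253 and 838 after median scaling. A difference of at least 1 log2 unit was reached by 479 called genes (3.89%), 309 higher (2.51%) and 170 lower genes (1.38%). In 2007 genes (16.3%) the lines of the crosses did not overlap. The median difference over all genes was 0.02 log2 units. Among genes with a mean over 100 RPKM, 65 were higher and 184 lower, and among genes between 1 and 5 RPKM 346 were higher and 154 lower. The count fell to 1093 without line c4, 1149 without c2, 1168 without c6, 1252 without line 20 and 1359 without line 23.

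**Figure D1:**
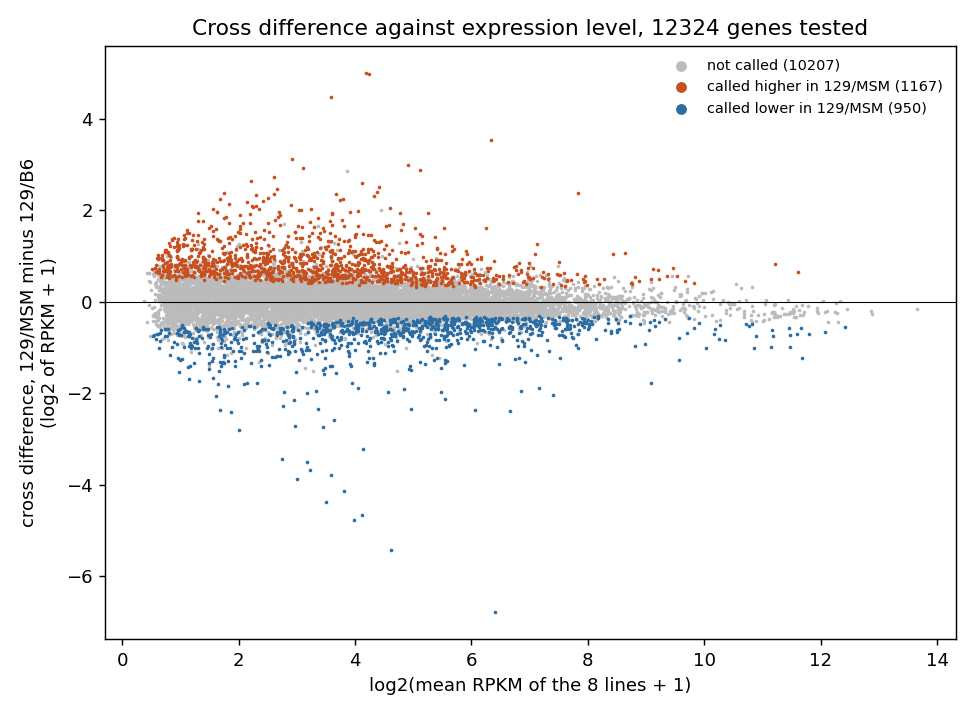
Cross difference (129/MSM minus 129/B6, y axis, log2 of RPKM + 1) of each of 12324 genes against its mean level in the 8 lines (x axis, log2 scale); 1167 genes called higher are orange, 950 called lower are blue and the rest are grey. Called genes lie at every level, and the most extreme points are on the lower side, where Gm10073 stood at -6.79.

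Of the 12 most raised genes with an established name, Mgarp led. It encodes a glutamic acid-rich protein of mitochondria and read 136, 117, 166 and 169 RPKM in the 129/MSM lines and 12.5, 15.7, 10.1 and 9.19 RPKM in the 129/B6 lines. Every 129/MSM line lay far above every 129/B6 line, and the difference was 3.54 log2 units (SE 0.18, adjusted p = 6.4e-06). Irgm1, an interferon-inducible GTPase that acts against intracellular bacteria, read 8.22, 14.1, 16.2 and 12.1 RPKM against 0.446, 0.345, 0.894 and 0.456 RPKM, a difference of 3.13 log2 units (SE 0.19, adjusted p = 1.9e-05). All 129/B6 lines were below 1 RPKM. Its relatives Irgm2 and Igtp, at overlapping loci on the same chromosome, were also called, at 0.98 and 0.84 log2 units from levels under 1 RPKM in every 129/B6 line. Pros1, which encodes the anticoagulant protein S, a ligand of the TAM receptor kinases, read 53.2, 34.2, 64.6 and 57.9 RPKM against 6.89, 9.59, 3.44 and 4.01 RPKM (2.99 log2 units, SE 0.29, adjusted p = 0.0003).

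Aass, which starts the breakdown of lysine, read 11.2, 3.77, 15.6 and 8.19 RPKM against 0.662, 0.659, 0.448 and 0.184 RPKM (2.72 log2 units, SE 0.34, adjusted p = 0.0012). Gadl1, a decarboxylase of acidic amino acids, read 7.68, 2.17, 12.3 and 6.24 RPKM against 0.0925, 0.0915, 0.136 and 0.268 RPKM (2.65 log2 units, SE 0.33, adjusted p = 0.0012). In both, line 2 was the lowest of the 129/MSM lines and still lay above all 129/B6 lines. Clec4a1, a C-type lectin receptor of myeloid cells, read 16.6, 16.7, 3.71 and 2.63 RPKM against 1.15, 1.6999, 0 and 0 RPKM (2.46 log2 units, SE 0.20, adjusted p = 0.00013), higher in XX than in XY lines of each cross and listed at 0 in the XY lines of 129/B6. Dysf, encoding the membrane repair protein dysferlin, stood at 2.26 and the kinesin gene Kif19a at 2.33 log2 units, again without overlap.

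P2rx7 and P2rx4 encode ATP-gated ion channels and are neighbours on chromosome 5, with 16.1 kb between them, yet they differed in opposite directions. P2rx7 (chr5:122643910-122691432, mm10) read 36.996, 27.9, 33.3 and 40.3 RPKM in 129/MSM and 9.87, 8.03, 2.98 and 2.75 RPKM in 129/B6, a difference of 2.51 log2 units (SE 0.28, adjusted p = 0.00077). P2rx4 (chr5:122707543-122729738), picked after its values were seen, read 9.16, 4.65, 6.58 and 3.72 RPKM and 26.7, 36.3, 15.9 and 21.5 RPKM, a difference of -1.90 log2 units (SE 0.24, adjusted p = 0.0012). The crosses overlapped in neither gene. The promoters of this pair, of the most raised named gene Mgarp and of Olig2, which is listed at 0 in the 129/MSM lines, are shown so that their CpG content can be compared. They are RefSeq sequences of the GRCm38.p6 build, from 250 bases before to 50 bases after the start, on the gene's own strand, with each CpG in capitals. RefSeq gives P2rx7 a second start, whose promoter (chr5:122650133-122650432) holds 4 CpGs and is not printed. The first P2rx7 promoter (chr5:122643677-122643976, plus strand) holds 8 CpGs, the P2rx4 promoter (chr5:122707294-122707593, plus) 18, the Mgarp promoter (chr3:51396498-51396797, minus) 16 and the Olig2 promoter (chr16:91225300-91225599, plus) 25. Over the 9428 tested genes with a promoter of this length the median was 21 CpGs, with 15.7% holding as few as the first P2rx7 promoter or fewer and 7.29% as few as the second.
P2rx7: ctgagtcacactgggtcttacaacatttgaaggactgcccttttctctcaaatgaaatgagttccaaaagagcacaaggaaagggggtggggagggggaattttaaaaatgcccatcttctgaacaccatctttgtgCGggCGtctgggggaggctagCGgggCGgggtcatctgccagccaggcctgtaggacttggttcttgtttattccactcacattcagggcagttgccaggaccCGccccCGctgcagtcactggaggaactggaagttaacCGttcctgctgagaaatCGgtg
P2rx4: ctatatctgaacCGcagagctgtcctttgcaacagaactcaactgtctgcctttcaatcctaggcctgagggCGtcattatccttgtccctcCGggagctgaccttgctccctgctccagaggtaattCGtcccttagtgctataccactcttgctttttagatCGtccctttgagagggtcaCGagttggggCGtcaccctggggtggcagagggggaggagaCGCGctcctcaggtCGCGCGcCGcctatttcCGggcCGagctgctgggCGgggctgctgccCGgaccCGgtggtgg
Mgarp: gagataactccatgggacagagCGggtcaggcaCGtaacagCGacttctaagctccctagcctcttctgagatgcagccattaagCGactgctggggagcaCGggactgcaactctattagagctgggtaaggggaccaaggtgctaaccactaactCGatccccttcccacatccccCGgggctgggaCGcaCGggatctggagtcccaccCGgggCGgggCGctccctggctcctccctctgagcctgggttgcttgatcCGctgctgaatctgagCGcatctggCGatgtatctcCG
Olig2: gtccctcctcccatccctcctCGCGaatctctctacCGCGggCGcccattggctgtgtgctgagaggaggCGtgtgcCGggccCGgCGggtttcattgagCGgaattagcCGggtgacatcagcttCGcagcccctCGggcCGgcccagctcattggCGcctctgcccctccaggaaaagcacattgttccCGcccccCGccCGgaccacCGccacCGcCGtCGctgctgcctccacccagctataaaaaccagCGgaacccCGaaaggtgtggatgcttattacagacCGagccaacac

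Promoter CpG content is given as a description, with no test. At most 5 CpGs were found in 9.55% of the 9428 tested genes with a promoter, in 19.9% of 206 genes higher in 129/MSM by at least 1 log2 unit and in 26.1% of 119 genes lower by that much. Median counts were 21, 15 and 10 CpGs. Promoters were found for 76.6%, 66.7% and 70.8% of the 3 sets. Sequence from MSM/Ms or 129X1/SvJ was not used here.

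The 12 most lowered genes with an established name included Ubd, Saa3, Cd3g and Nod1. Ubd, which encodes the ubiquitin-like modifier FAT10, was listed at 0 in all 4 129/MSM lines and read 50.9, 59.6, 8.04 and 13.2 RPKM in the 129/B6 lines. It was also listed at 0 in the 6 other libraries of the 129/MSM cross. Saa3, an acute-phase serum amyloid A gene, read 0.739, 0, 0.4298 and 0 RPKM in 129/MSM and 38.1, 42.6, 9.42 and 12.6 RPKM in 129/B6 (-4.14 log2 units, SE 0.34, adjusted p = 0.00012). Ubd and Saa3 were both higher in the XX than in the XY lines of 129/B6. Cd3g, a chain of the T cell receptor complex, read 1.38, 0.695, 0 and 0 RPKM against 66.5, 61.4, 1.39 and 1.98 RPKM (-3.21 log2 units, SE 0.60, adjusted p = 0.0078), with nearly all of its signal in the XX lines c3 and c4. Nod1, a sensor of bacterial peptidoglycan, read 1.38, 3.22, 3.06 and 2.102 RPKM against 20.5, 14.5, 14.2 and 15.95 RPKM (-2.35 log2 units, SE 0.21, adjusted p = 0.00023), and here XX and XY lines of 129/B6 were at like levels.

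Pcmtd2, related to the methyltransferases that repair isoaspartate in proteins, read 0.277, 0.2703, 0.609 and 0.266 RPKM in the 129/MSM lines and 14.95, 14.7, 17.9 and 17.9 RPKM in the 129/B6 lines (-3.68 log2 units, SE 0.14, adjusted p = 7.6e-07). Its paralogue Pcmtd1 stood at -0.06 log2 units (SE 0.13, adjusted p = 0.8) and was not called. Olig2 and Olig1, neighbouring bHLH transcription factor genes of the oligodendrocyte lineage 41.1 kb apart, were both nearly silent in 129/MSM. Olig2 was listed at 0 in all 4 lines against 6.04, 4.75, 7.596 and 5.68 RPKM, and Olig1 read 0.249, 0.113, 0.145 and 0.116 RPKM against 6.24, 4.99, 5.63 and 3.94 RPKM (-2.41 log2 units, SE 0.16, adjusted p = 3.1e-05). Cd59a, an inhibitor of the complement attack complex, read 1.04, 0.766, 3.67 and 2.52 RPKM against 15.7, 21.9, 13.9 and 20.2 RPKM (-2.75 log2 units, SE 0.27, adjusted p = 0.00033), and Wsb1, a SOCS box subunit of a ubiquitin ligase, read 21.3, 24.04, 21.3 and 16.1 RPKM against 102, 137, 102 and 101 RPKM (-2.36 log2 units, SE 0.13, adjusted p = 8.4e-06). The crosses did not overlap in any of these. Tspo2 stood at -2.73 log2 units (SE 0.43, adjusted p = 0.0038) with a wide spread, 3.55, 0.0976, 1.21 and 0.273 RPKM against 7.41, 10.03, 15.2 and 16.9 RPKM.

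**Figure D2:**
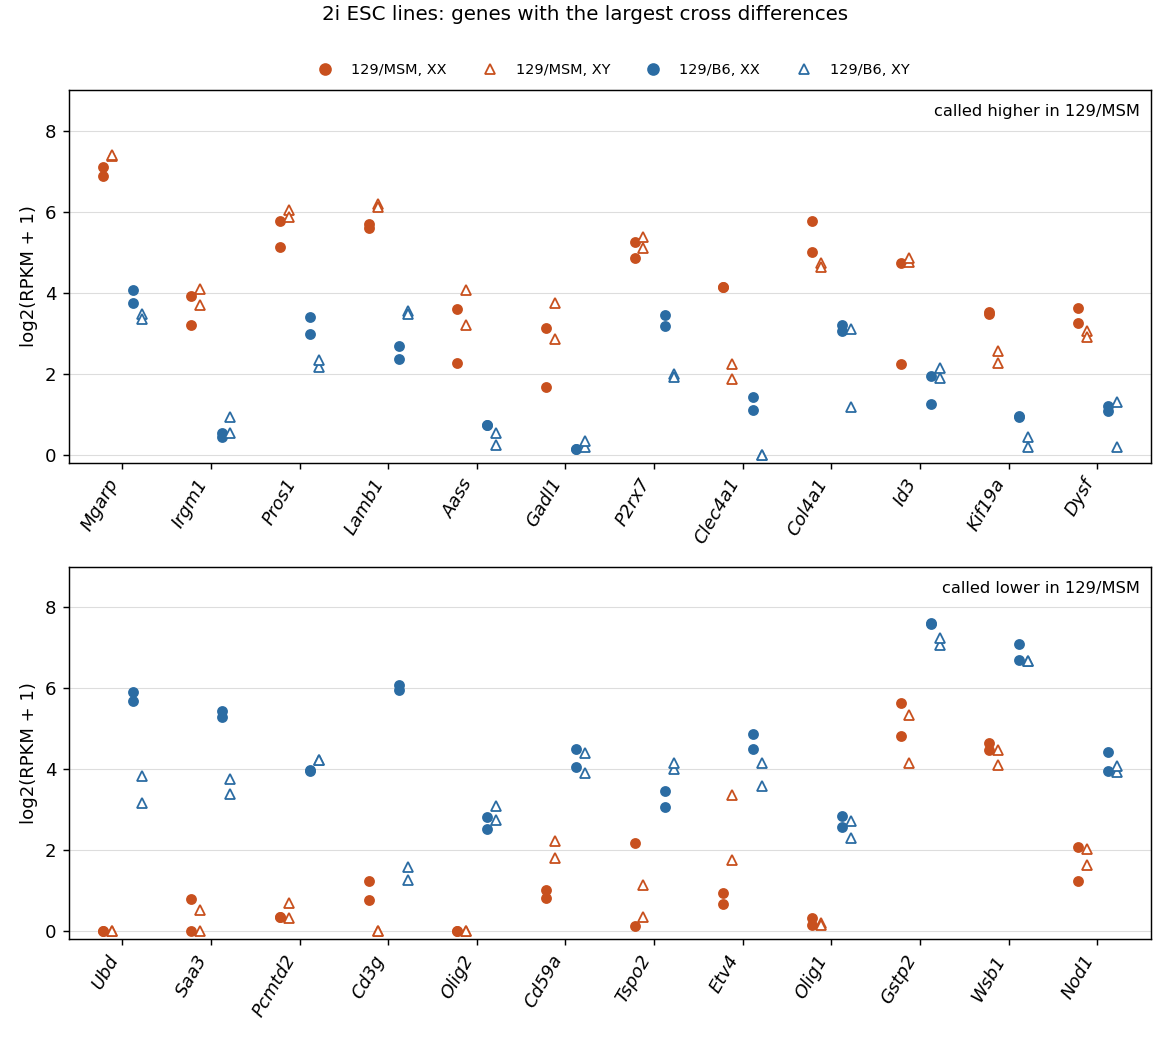
Level of the 12 most raised (top) and 12 most lowered (bottom) named genes in each line, y axis log2(RPKM + 1); orange is 129/MSM, blue is 129/B6, filled circles are XX and open triangles XY lines. In each gene all orange points lie on 1 side of all blue points, while Cd3g, Ubd and Saa3 also differ between the XX and XY lines of 129/B6.

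Features with predicted or related-sequence names gave the most extreme values. Gm10073 read 0.826, 0.4996, 0.2404 and 0.516 RPKM in 129/MSM and 143, 167, 189.7 and 168 RPKM in 129/B6 (-6.79 log2 units, SE 0.15, adjusted p = 2.0e-08). Pcna-ps2, a pseudogene name, read 0.138, 0.0697, 0.134 and 0.07199 RPKM against 27.98, 34.5, 24.4 and 30.6 RPKM, whereas Pcna itself, the replication clamp, stood at -0.12 log2 units (SE 0.14, adjusted p = 0.6). Tpm3-rs7 read 33.5, 42.6, 30.8 and 36.4 RPKM against 0.148, 0.147, 0.109 and 0.242 RPKM, whereas the tropomyosin gene Tpm3 stood at 0.12 log2 units (SE 0.13, adjusted p = 0.58). The values of such near-identical copies are uncertain, since reads can be split between a copy and its parent, and the rule for assigning them was not stated in the labels. Of 245 tested genes with Gm names 61 were higher and 24 lower, 34.7% called against the background of 17.2%, and after quantile normalization 49 were higher and 31 lower. Of 9 with pseudogene or related-sequence names 2 were higher and 4 lower.

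Several loci were listed at 0 in 1 cross and expressed in all lines of the other. Outside the Y and mitochondrial loci, 7 loci read 0 in all 4 129/MSM lines and at least 1 RPKM in all 4 129/B6 lines, and 2 did the reverse. Of the 7, Gm11032 (22.96, 68.1, 67.3 and 29.9 RPKM in 129/B6), Gm17404, Rps26-ps1 and Ubd were at 0 in all 10 libraries of the 129/MSM cross. Gm8909, within the histocompatibility region of chromosome 17, read 15.5, 19.6, 9.65 and 11.6 RPKM in 129/B6 and was above 0 in 1 of those 10 libraries, and Olig2 in 3. The reverse pattern was seen in Gm21028 (50.3, 38.01, 36.6 and 13.1 RPKM in 129/MSM) and Gm2399 (17.9, 22.3, 15.3 and 32.9 RPKM). They were above 0 in 6 and in 1 of the 16 libraries of the 129/B6 cross. Gm11032 also varied within 129/B6: it was at 0 in serum lines 17 and 10 and read 37.6 and 21.9 RPKM in serum lines 46 and 16. Its lowest value in the modified 2i media was 0 as well. The loci of both patterns bear names of predicted genes or pseudogenes apart from Ubd and Olig2.

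Of 10 core pluripotency genes 4 were higher and 0 lower, 40.0% called. Of 18 naive genes 4 were higher and 0 lower, 22.2% called, which is near the background of 17.2%. The medians were 0.48 and 0.39 beside 0.02 for all genes. Zfp42 (Rex1), a marker of the naive state, read 388, 451, 431 and 584 RPKM in 129/MSM and 248, 269, 185 and 199.8 RPKM in 129/B6 (1.04 log2 units, SE 0.16, adjusted p = 0.0034). All 129/MSM lines lay above all 129/B6 lines. Prdm14, a repressor that keeps the de novo methyltransferases and FGF signalling low in naive cells, read 55.2, 77.9, 30.8 and 33.004 RPKM against 29.6, 25.9, 11.9 and 11.8 RPKM (1.29 log2 units, SE 0.13, adjusted p = 0.0004), and in each cross XX lines were above XY lines. Nr0b1 (Dax1), an X-linked repressor of the network, stood at 0.89 log2 units (SE 0.14, adjusted p = 0.0036). Tdgf1, the Nodal co-receptor Cripto, read 869, 461, 397 and 452 RPKM against 247, 346, 197 and 219 RPKM (1.07 log2 units, SE 0.19, adjusted p = 0.0062), with line 15 far above the rest.

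Nanog, a central naive factor, read 563, 677, 374 and 465 RPKM against 493, 535, 225 and 254 RPKM (0.53 log2 units, SE 0.14, adjusted p = 0.03). Its levels overlapped between the crosses, XX lines were above XY lines in both, and the call was kept in 3 of 8 fits that each left out a line. Sox2, the partner of Pou5f1, stood at 0.47 log2 units (SE 0.12, adjusted p = 0.032) and its call was kept in 2 of those 8 fits. Lin28a, an RNA-binding protein that blocks let-7 maturation, stood at 0.82 log2 units (SE 0.18, adjusted p = 0.014). Pou5f1 (0.03 log2 units, SE 0.10, adjusted p = 0.88), Klf4 (0.15), Esrrb (0.40) and Tfcp2l1 (0.40 log2 units) were not called. The 95% interval for Pou5f1 ran from -0.21 to 0.26 log2 units and that for Tfcp2l1 from 0.05 to 0.75.

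Of 14 tested genes of the formative and primed epiblast, which naive cells hold low, 7 were higher in 129/MSM and 0 lower, with a median of 0.73. Their called share was 50%, beside 17.2% of all genes tested. Lef1, a DNA-binding partner of beta-catenin, read 13.1, 8.198, 19.2 and 16.1 RPKM against 4.23, 3.21, 1.89 and 1.64 RPKM (2.02 log2 units, SE 0.29, adjusted p = 0.0026). Zic2, a zinc finger factor of primed cells, stood at 1.33 and the cadherin gene Cdh2 at 1.73 log2 units, without overlap between the crosses. Sox3 (0.78), Pou3f1 (0.75), Fgf15 (0.70) and T (0.81 log2 units) were the other genes called, and T kept its call in 3 of the 8 fits that left out a line. Otx2 stood at 0.03 log2 units (SE 0.48, adjusted p = 0.98) and Nodal at -0.06 log2 units, and neither passed the test. After quantile normalization 5 genes of the list were higher.

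Of 16 tested ERK targets 3 were higher and 1 lower (median 0.15), 25% called beside 17.2% of all genes tested. Myc, an immediate target of several mitogenic pathways, read 4.09, 12.8, 11.2 and 20.9 RPKM against 1.56, 0.8796, 2.9996 and 2.85 RPKM (2.0 log2 units, SE 0.30, adjusted p = 0.0033), and the ERK feedback inhibitor Spry2 stood at 0.77 log2 units (SE 0.15, adjusted p = 0.011). Etv4, an ETS factor induced by ERK, went the other way and read 0.602, 0.922, 2.37 and 9.39 RPKM against 28.2, 21.8, 16.8 and 11.1 RPKM (-2.59 log2 units, SE 0.52, adjusted p = 0.01). Line 23 came close to line c6 but did not reach it, and the relatives Etv5 (0.27) and Etv1 (-0.01 log2 units) did not pass the test. Of 13 genes of the BMP and Nodal pathways 3 were higher: Tdgf1, Bmp4 (1.53 log2 units, SE 0.25, adjusted p = 0.0049) and the BMP target Id3. Id3 read 3.71, 25.7, 26.3 and 27.9 RPKM against 2.82, 1.36, 3.39 and 2.73 RPKM (2.35 log2 units, SE 0.46, adjusted p = 0.0096), and line 15 stood close to the 129/B6 lines. Id1 (0.64) and Id2 (-0.33 log2 units) did not pass. Of 10 tested genes of the LIF pathway 1 was called, Il6st, which encodes the shared receptor chain gp130 (0.83 log2 units, SE 0.16, adjusted p = 0.0089). Of 10 tested Wnt targets 2 were higher, Lef1 and T, which are also on the epiblast list. The called shares of the BMP and Nodal, LIF and Wnt lists were 23.1%, 10.0% and 20.0%, near the 17.2% of all genes.

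Of 17 genes of the DNA methylation machinery 4 were higher and 0 lower (median 0.20), 23.5% called, which is near the background of 17.2%. Dnmt3a, a de novo DNA methyltransferase, read 32.8, 33.4, 26.9 and 27.7 RPKM in 129/MSM and 10.8, 10.6, 15.3 and 9.27 RPKM in 129/B6 (1.34 log2 units, SE 0.16, adjusted p = 0.0011). Every 129/MSM line lay above every 129/B6 line. The related enzyme gene Dnmt3b did not pass the test and pointed the other way, at 9.86, 12.3, 12.4 and 19.8 RPKM against 21.9, 16.04, 18.9 and 16.3 RPKM (-0.44 log2 units, SE 0.19, adjusted p = 0.15). Their cofactor Dnmt3l varied among lines of the same cross (122, 29.7, 82.3 and 125 RPKM against 76.7, 66.5, 32.2 and 29.6 RPKM, 0.72 log2 units, SE 0.47, adjusted p = 0.31). Dnmt1, the maintenance enzyme, stood at 0.01 log2 units (SE 0.14, adjusted p = 0.96), with a 95% interval from -0.29 to 0.32, and Uhrf1, which brings it to replicated DNA, at -0.07 log2 units (SE 0.13, adjusted p = 0.77). Tet2, which oxidizes methylated cytosine, stood at 1.03 log2 units (SE 0.26, adjusted p = 0.026), a call kept in 3 of 8 fits that left out a line, while Tet1 stood at 0.24 log2 units (SE 0.19, adjusted p = 0.42). Zfp57, which protects imprints from demethylation, stood at 0.37 log2 units (SE 0.10, adjusted p = 0.027) with overlap between the crosses and kept its call in 2 of those 8 fits. Prdm14, given above, was also on this list.

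Of 20 tested paternally expressed imprinted genes 6 were higher and 0 lower (median 0.33). Of 13 maternally expressed ones 0 were higher and 1 lower (1 higher and 1 lower after quantile normalization). The called shares were 30.0% and 7.69%, beside 17.2% of all genes tested. Impact, a translational regulator on chromosome 18, read 78.03, 73.3, 62.2 and 65.9 RPKM against 41.1, 42.6, 22.4 and 23.3 RPKM (1.14 log2 units, SE 0.13, adjusted p = 0.00095) with no overlap. Peg10, a retrotransposon-derived gene needed for placentation, stood at 1.51 log2 units (SE 0.24, adjusted p = 0.0038) but overlapped between the crosses. Inpp5f (0.98), Dlk1 (0.89), Slc38a4 (0.73) and Ndn (0.56 log2 units) were the other paternally expressed genes called. Grb10, a growth inhibitor, was the lower maternal gene (-0.62 log2 units, SE 0.19, adjusted p = 0.0499), and it kept its call in 2 of the 8 fits that left out a line. Genes named Meg3, H19 and Xist have no locus under those names in the table used here. Of 20 tested germline genes with methylated promoters 1 was higher and 3 lower, 20.0% called and near the share of all genes. Dazl, a germ cell RNA-binding protein, read 178, 70.8, 9.62 and 4.298 RPKM against 19.03, 26.7, 7.51 and 10.004 RPKM and was not called (0.95 log2 units, SE 0.52, adjusted p = 0.24), with lines 15 and 2 above all the others.

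Several genes for basement membrane proteins were higher in 129/MSM. Of 15 genes on the primitive endoderm list 7 passed the filter, which the 129/MSM lines alone can satisfy. Of these 7, 5 were higher and 0 lower, and all 5 encode laminin or type IV collagen chains. That is 71.4% called, beside 17.2% of all genes tested, and the share says nothing of the members left out by the filter. Lamb1, a laminin chain, read 47.5, 50.6, 72.4 and 68.6 RPKM against 4.15, 5.43, 10.7 and 10.2 RPKM (2.88 log2 units, SE 0.14, adjusted p = 4.0e-06). Col4a1 read 31.2, 53.4, 25.7 and 23.9 RPKM against 8.18, 7.29, 7.596 and 1.28 RPKM (2.40 log2 units, SE 0.35, adjusted p = 0.0028), and its neighbour Col4a2 stood at 1.65 log2 units (SE 0.25, adjusted p = 0.0034). Lama1 (0.87) and Lamc1 (0.50 log2 units) were called with smaller differences, and Lama1 kept its call in 6 of the 8 fits that left out a line. The transcription factors that define primitive endoderm were near 0: Gata6, Gata4, Sox17 and Sox7 each read at most 1.38 RPKM in every line.

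Of 20 fibroblast genes 8 passed the filter, which a gene can pass through the 129/MSM lines alone, so their count says nothing of the list. The genes called were Thy1 (10.5, 5.09, 4.16 and 3.37 RPKM against 2.49, 2.23, 0.9002 and 0.6599 RPKM, 1.37 log2 units, SE 0.20, adjusted p = 0.0031) and Col5a1 (1.16 log2 units, SE 0.22, adjusted p = 0.0078). The fibroblast libraries read 495 to 562 RPKM for Col4a1, 87.6 to 97.6 RPKM for Lamb1 and 120.2 to 226 RPKM for Id3. Of the 309 genes higher by at least 1 log2 unit, 208 (67.3%) had a lower level in each fibroblast library than the mean of the 129/MSM lines, beside 7008 (56.9%) of all 12324 genes tested. The part of fibroblast RNA in these differences was not tested.

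**Figure D3:**
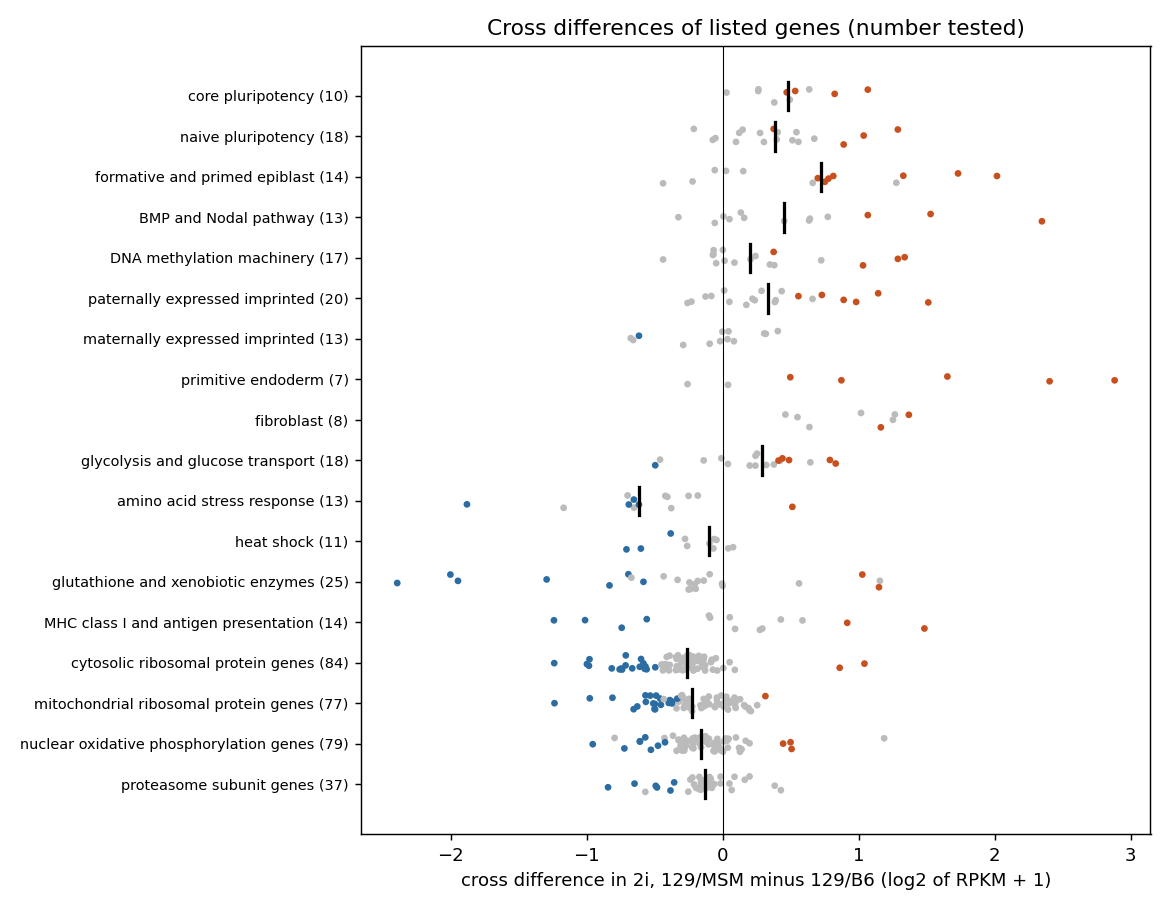
Cross difference (x axis, log2 of RPKM + 1) of each tested member of 18 gene lists, with the number tested in brackets; orange points were called higher and blue points lower in 129/MSM, grey points were not called, and black bars are list medians, drawn where at least 80% of the list in the table passed the filter. The bar of core pluripotency genes stands at 0.48 and that of cytosolic ribosomal protein genes at -0.26.

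Of 18 glycolysis genes 5 were higher and 1 lower (median 0.29), 33.3% called beside 17.2% of all genes tested. After quantile normalization 8 were higher and 0 lower. Eno1 (enolase) read 3256, 3143, 2697 and 3015 RPKM against 1900.2, 1633, 1683 and 1589.6 RPKM (0.83 log2 units, SE 0.10, adjusted p = 0.00095) and Pfkl, the liver-type phosphofructokinase, stood at 0.79 log2 units (SE 0.14, adjusted p = 0.0073), without overlap. Hk1 (hexokinase) was lower (-0.50 log2 units, SE 0.15, adjusted p = 0.0488), a call lost under quantile and median scaling and kept in 1 of the 8 fits that left out a line. Of 13 tested genes of the amino acid stress response 4 were lower and 1 higher (38.5% called), with a median of -0.62. Phgdh, the first enzyme of serine synthesis, read 64.8, 53.7, 58.97 and 47.6 RPKM against 129, 146, 329.7 and 302 RPKM (-1.88 log2 units, SE 0.24, adjusted p = 0.0015). Asns, asparagine synthetase, read 613, 633, 724 and 571 RPKM against 897, 876, 1169 and 1184 RPKM (-0.69 log2 units, SE 0.11, adjusted p = 0.0049). In both genes the XY lines of 129/B6 were the highest of all. Atf4, the transcription factor that drives the response, was not called (-0.38 log2 units, SE 0.12, adjusted p = 0.062). The neutral amino acid transporter gene Slc1a5 was lower as well (-1.24 log2 units, SE 0.11, adjusted p = 0.00024).

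Of 25 tested genes for glutathione and xenobiotic enzymes 7 were lower and 2 higher, 36.0% called beside 17.2% of all genes tested. Gstp2 read 49.0003, 27.2, 39.9 and 16.7 RPKM against 192, 195, 134 and 151 RPKM (-2.39 log2 units, SE 0.25, adjusted p = 0.00053), and its neighbour Gstp1, 2.36 kb away, read 78.3, 58.7, 61.5 and 47.7 RPKM against 100.5, 106, 78.001 and 83.3 RPKM (-0.58 log2 units, SE 0.12, adjusted p = 0.014). Gstm3 (-2.0), Gsto1 (-1.95) and Gstm2 (-1.29 log2 units) followed, whereas Gstt1 was higher (1.15). The Gstp and Gstm genes are families of similar copies, so the share of each copy is uncertain. Of 11 tested heat shock genes 3 were lower (27.3% called), Hsp90aa1 the most (2385, 2193, 2052 and 2785 RPKM against 3556, 3323, 4017 and 4473 RPKM, -0.71 log2 units, SE 0.12, adjusted p = 0.0059).

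Class I histocompatibility genes, which are highly polymorphic between strains, differed in both directions. H2-K1 read 7.21, 3.903, 6.65 and 4.71 RPKM against 11.1, 10.1, 20.3 and 18.1 RPKM (-1.24 log2 units, SE 0.22, adjusted p = 0.0059), while H2-D1 read 20.3, 14.2, 28.2 and 29.6 RPKM against 8.45, 6.97, 7.01 and 6.84 RPKM (1.48 log2 units, SE 0.20, adjusted p = 0.0016). Neither gene overlapped between the crosses. Of 14 tested genes of class I presentation 2 were higher and 4 lower (3 and 3 after median scaling), and B2m, the shared light chain, stood at 0.27 log2 units (SE 0.22, adjusted p = 0.41). Of 23 tested interferon-inducible genes 5 were higher and 4 lower. The called shares of the class I and interferon lists were 42.9% and 39.1%, beside 17.2% of all genes tested. Ifitm3, which restricts virus entry, read 141, 80.3, 90.1 and 95.2 RPKM against 279, 256, 152 and 188 RPKM (-1.09 log2 units, SE 0.18, adjusted p = 0.0046), opposite to Irgm1.

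Of 84 cytosolic ribosomal protein genes 18 were lower and 2 higher (median -0.26). Of 77 mitochondrial ribosomal protein genes 20 were lower and 1 higher (median -0.22). The called shares were 23.8% and 27.3%, beside 17.2% of all genes tested. Rpl12 read 2058, 1657, 2279.9 and 1821 RPKM against 3657, 5218, 4474 and 5140.1 RPKM (-1.24 log2 units, SE 0.14, adjusted p = 0.0009) and Mrps21 read 97.6, 119.5, 103 and 115 RPKM against 245, 273, 257 and 253 RPKM (-1.24 log2 units, SE 0.10, adjusted p = 0.00012). Both were without overlap. Rpl10l, a retrocopy of Rpl10 used in the germline, was higher (208, 210.5, 157 and 155 RPKM against 75.1, 93.9, 85.3 and 96.1 RPKM, 1.04 log2 units, SE 0.13, adjusted p = 0.0013). Quantile normalization moved the cytosolic median to -0.03 with 16 genes lower and 3 higher, and 12 mitochondrial genes were lower under it. Of 79 nuclear oxidative phosphorylation genes 8 were lower and 3 higher (4 higher and 6 lower after quantile normalization). Of 37 proteasome genes 6 were lower and 0 higher. These are 13.9% and 16.2% called, no more than the 17.2% of all genes tested. Among all 1303 genes with a mean over 100 RPKM, 65 were higher and 184 lower. Ribosomal protein genes have many processed copies, so their values are uncertain in the same way as those of pseudogenes.

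Of 311 tested genes with Zfp names 34 were higher and 10 lower (25 and 13 after quantile normalization), 14.1% called beside the background of 17.2%. In all, 3 of 8 runs of neighbouring called genes were zinc finger clusters. Runs were defined as at least 4 neighbouring tested genes called in the same direction. The longest held 7 genes on chromosome 4 (chr4:145510758-146470292), among them Zfp600 (14.7, 14.8, 24.3 and 19.2 RPKM against 6.37, 6.98, 6.52 and 5.497 RPKM) and Gm13225 (60.1, 57.7, 79.1 and 77.8 RPKM against 22.2, 24.96, 19.4 and 19.9 RPKM), with a median of 1.25 log2 units. On chromosome 13 (chr13:62129915-62520544) Zfp808, Gm3604, Zfp935 and Zfp934 had a median of 1.61. Zfp808 read 14.9, 18.3, 22.7 and 25.3 RPKM against 5.28, 6.901, 4.02 and 4.39 RPKM (1.79 log2 units, SE 0.20, adjusted p = 0.00081). On chromosome 17 (chr17:21926959-22361400) 5 genes from Zfp942 to Zfp944 had a median of 0.74. Zinc finger genes of such clusters are similar copies, and the split of reads among them is uncertain.

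The other 5 runs were 3 higher and 2 lower. On chromosome 1 Cox20, Gm28062, Hnrnpu and Efcab2 were higher. Hnrnpu, an RNA-binding protein of the nuclear matrix, read 119, 112, 102 and 121 RPKM against 41.99, 37.1, 33.6 and 32.3 RPKM (1.62 log2 units, SE 0.10, adjusted p = 2.6e-05), and Gm28062 overlaps it, so their reads cannot be kept apart with certainty. On chromosome 7 Ccdc155, Dkkl1, Tead2 and Cd37 were lower. Tead2, a DNA-binding partner of YAP, read 44.9, 44.9, 42.4 and 36.8 RPKM against 61.8, 60.1, 69.6 and 60.01 RPKM (-0.56 log2 units, SE 0.11, adjusted p = 0.0089). On chromosome 19 a run with Gstp1 and Gstp2 was lower and a run from Cep78 to Vps13a was higher, and on the X chromosome 5 genes from C77370 to Magee2 were higher. Relative to lines with the same sex chromosomes, the median of each of 19 autosomes in each line lay between -0.07 and 0.09 log2 units.

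Of 470 tested X-linked genes, 66 were higher and 25 lower, with a median of 0.18 beside 0.02 for all genes. Their called share, 19.4%, was near the 17.2% of all genes. The median X-linked gene was compared with its level in the other XY lines, and the same median over autosomal genes was subtracted. The result was 1.06 and 0.95 log2 units in the XX lines of 129/MSM and at 0.82 and 0.92 in those of 129/B6, so XX lines of both crosses held a raised X-linked level. In the XY lines it was 0.07 and 0.05 in 129/MSM and at -0.09 and -0.04 in 129/B6. Of 28 tested genes of X-linked multicopy families 7 were lower and 2 higher, 32.1% called (0 higher and 7 lower after quantile normalization). Xlr3a, of a germ cell family, read 47.6, 41.3, 2.003 and 0.983 RPKM against 96.02, 142, 19.99 and 14.1 RPKM (-2.12 log2 units, SE 0.30, adjusted p = 0.0024), with XX above XY lines in both crosses.

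The cross difference itself depended on the sex chromosomes in 39 genes (0.316% of 12324), 13 in which 129/MSM minus 129/B6 was higher in XX than in XY lines (0.105%) and 26 in which it was lower (0.211%), by a test of the difference between the XX and XY differences (limma, Benjamini-Hochberg adjustment). At an unadjusted p under 0.05 there were 1338 genes. H2-Eb1, a chain of class II histocompatibility molecules, read 151, 154, 4.71 and 4.77 RPKM in 129/B6, only the XX lines being high, and 12.4, 12.5, 2.09 and 4.79 RPKM in 129/MSM (difference between the XX and XY differences -3.07 log2 units, SE 0.38, adjusted p = 0.022). Cd3g and its neighbour Cd3d followed the same pattern; Cd3d read 24.5, 31.5, 0.308 and 0.246 RPKM in 129/B6 and 3.26, 1.77, 0.505 and 0.339 RPKM in 129/MSM (difference between the XX and XY differences -3.22 log2 units, SE 0.36, adjusted p = 0.022). In these 3 genes the XX lines of 129/MSM stood above their XY lines too, but far below the XX lines of 129/B6.

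Other genes differed more between XX and XY lines in 129/B6 than in 129/MSM. Calb2, the calcium-binding protein calretinin, read 0.748, 0.569, 42.1 and 44.4 RPKM in 129/B6, high in XY lines, against 2.42, 1.798, 9.98 and 4.33 RPKM in 129/MSM (difference between the XX and XY differences 3.43 log2 units, SE 0.44, adjusted p = 0.025). Dppa2, a chromatin factor of pluripotent cells, read 46.003, 46.8, 8.66 and 9.69 RPKM in 129/B6 and 28.8, 35.8, 28.6 and 40.8 RPKM in 129/MSM (difference between the XX and XY differences -2.31 log2 units, SE 0.28, adjusted p = 0.022). Klhl13, an X-linked ubiquitin ligase adaptor, read 303, 297, 24.8 and 31.5 RPKM in 129/B6 and 102, 79.6, 39.2 and 34.4 RPKM in 129/MSM (difference between the XX and XY differences -2.11 log2 units, SE 0.25, adjusted p = 0.022). Khdc3, of the oocyte subcortical complex, read 8.85, 6.02, 35.1 and 33.2 RPKM and 44.4, 59.4, 42.3 and 41.7 RPKM (difference between the XX and XY differences 2.36 log2 units, SE 0.29, adjusted p = 0.022), with only the XX lines of 129/B6 low. Pgk1-rs7 stood out in the other cross: it read 70.8, 36.9, 0.139 and 0 RPKM in 129/MSM and at most 0.0462 RPKM in any 129/B6 line (difference between the XX and XY differences 5.58 log2 units, SE 0.41, adjusted p = 0.0022), while Pgk1, the gene it resembles, read 1149, 658, 348 and 277 RPKM in 129/MSM and 579, 699, 287 and 312 RPKM in 129/B6. Dppa2, Klhl13 and Khdc3 were picked after their values were seen. The count rested on few lines: it was 3 without c3, without c4 or without c2, 6 without c6, 10 without line 23, 24 without line 20 and 89 without line 2.

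**Figure D4:**
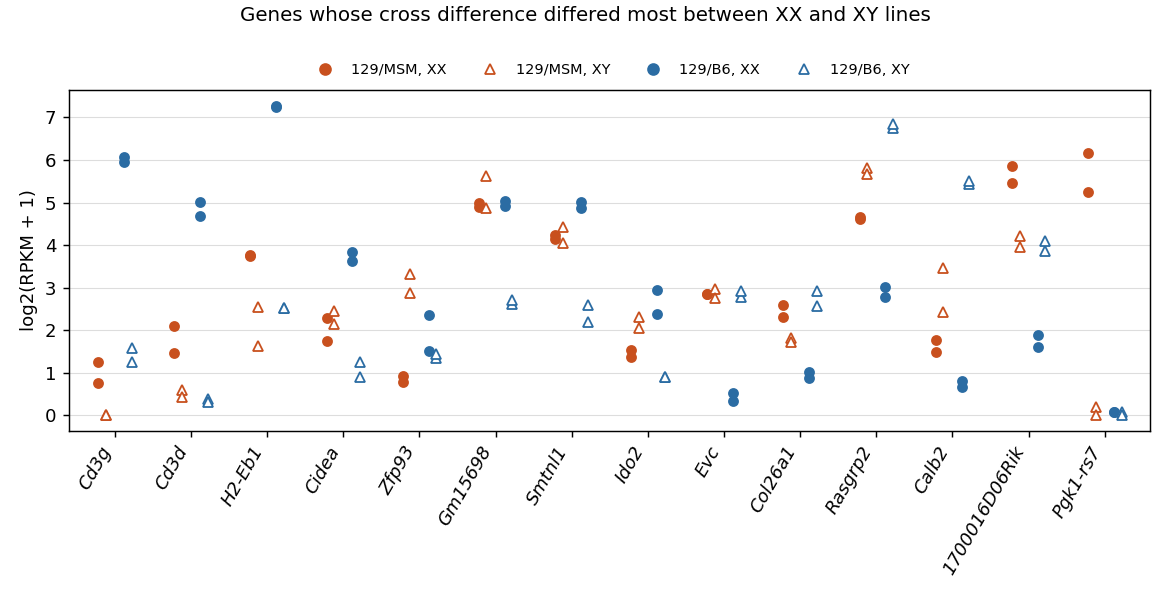
Level in each line of the 14 genes whose cross difference differed most between XX and XY lines, y axis log2(RPKM + 1), with colours for the cross and symbols for the sex chromosomes. In H2-Eb1, Cd3g and Cd3d the XX lines of 129/B6 stand apart, and in Pgk1-rs7 the XX lines of 129/MSM do.

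The same crosses were also grown in serum, in 2 lines of 129/MSM and 4 of 129/B6 that share no library with the 2i lines. Of 12796 genes tested there, 4685 (36.6%) were called, 1681 higher (13.1%) and 3004 lower (23.5%) in 129/MSM, a split that quantile normalization turned to 2369 higher and 1908 lower. The count fell to 2578 without 129/MSM serum line 12, 2832 without line 8 and 3118 without 129/B6 serum line 10. Fibroblast markers moved with that comparison, at 56.1 and 149 RPKM in the 129/MSM lines and 757 to 1194 RPKM in the 129/B6 lines. Of the 1167 genes higher in 2i, 1092 were tested in serum, 787 (72.1%) had the same sign and 443 were called the same way (40.6% of the tested 2i list and 26.4% of the serum list). Of the 950 lower in 2i, 925 were tested, 790 (85.4%) had the same sign and 484 were called the same way (52.3% and 16.1%). Called in the opposite direction were 94 and 10 genes. The median difference over all genes was -0.105 log2 units in serum and 0.018 in 2i. The same-sign shares of higher and lower genes are therefore not on an equal footing. The same-sign share of all 11887 genes tested in both was not counted. Over those genes the 2i and serum differences correlated at 0.424 (Pearson). The sets share the same coincidence of cross and processing, so these counts cannot tell them apart.

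Values for single genes show both outcomes. In serum, Mgarp stood at 3.04 (SE 0.16, adjusted p = 0.00017), Gm10073 at -6.78 (SE 0.13, adjusted p = 4.0e-06), Dnmt3a at 1.09 (SE 0.18, adjusted p = 0.0058), Zfp42 at 1.21 (SE 0.13, adjusted p = 0.0013) and Olig1 at -3.52 (SE 0.18, adjusted p = 0.00016), each on the side it had in 2i. Col4a1 (-2.35, SE 0.33, adjusted p = 0.0032) and Id3 (-2.38, SE 0.26, adjusted p = 0.0012) were on the opposite side, beside the higher fibroblast markers of the 129/B6 serum lines. Dnmt3b, not called in 2i, stood at 1.73 (SE 0.31, adjusted p = 0.007) in serum. Lines of 129/B6 in the modified media t2i and a2i gave a further range: of the 309 genes higher by at least 1 log2 unit in 2i, 193 (62.5%) had all 4 129/MSM lines outside the range of those 8 lines, and of the 170 lower genes 90 (52.9%) did, beside 1279 (10.4%) of all genes tested. The genes were chosen by the 2i difference, so these shares are a description.

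**Figure D5:**
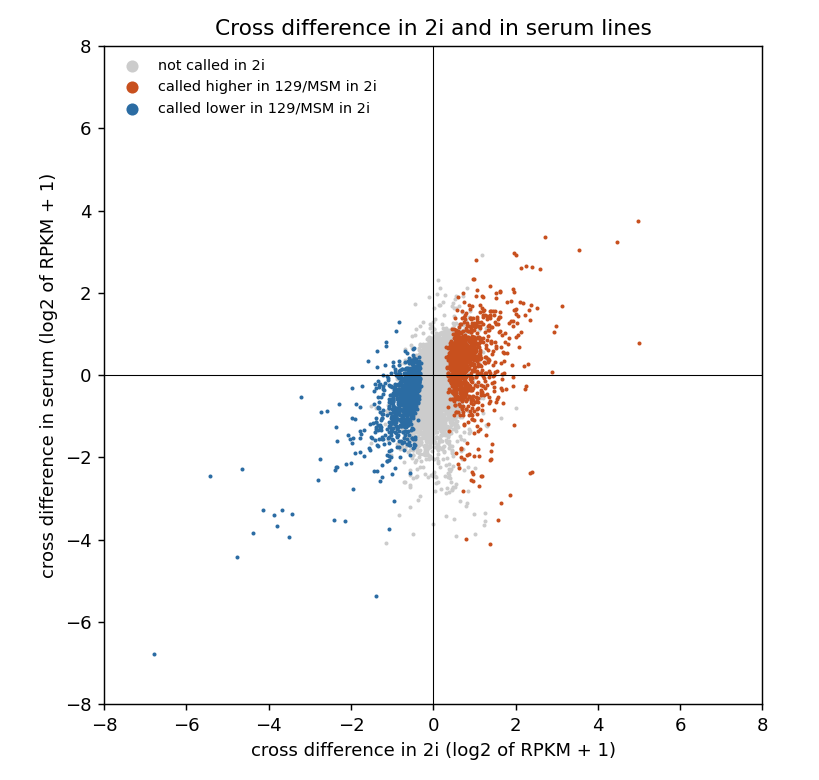
Cross difference in serum (y axis) against the cross difference in 2i (x axis) for 11887 genes tested in both, log2 of RPKM + 1; orange and blue points were called higher and lower in 129/MSM in 2i. Gm10073 lies in the lower left and Mgarp in the upper right quadrant, Col4a1 and Id3 lie in the lower right, and 94 genes called higher in 2i were called lower in serum.

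The remaining lists are given by their counts, beside 9.47% higher and 7.71% lower among all genes. Of 19 cholesterol synthesis genes 3 were higher and 1 lower, of 11 tested trophectoderm genes 1 was higher, of 4 tested mesoderm and neural genes 1 was higher and 1 lower (0 higher and 1 lower after quantile normalization), of 13 p53 targets 1 was lower, and of 11 immediate early genes 1 was higher. Of 26 X-linked housekeeping genes 2 were higher and 2 lower, of 5 X inactivation and escape genes none was called, and the single two-cell gene tested was not called. Of 10 tested loci known to vary among inbred strains 2 were lower. Glo1, whose locus is duplicated in some strains, stood at 0.16 log2 units (SE 0.09, adjusted p = 0.24) and Nnt, which is mutated in C57BL/6J, at 0.04 log2 units (SE 0.17, adjusted p = 0.89), and neither passed the test. Of 18 tested histone genes 1 was higher and 2 lower (1 higher and 4 lower after quantile normalization), and of 12 Hox genes 1 and 1 (0 higher and 1 lower). Of 208 solute carrier genes 27 were higher and 17 lower, and of 287 genes with RIKEN names 24 and 31 (15 and 37 after quantile normalization).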

How the data were processed

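The authors deposited 1 table of RPKM values per locus for all 26 RNA-seq libraries. Per the submitters' processing notes, the tools were TopHat2 2.1.0, Cufflinks 2.2.1, cutadapt 1.9.1 and Bowtie2 2.2.5, with mm10. The annotation release and use of strand were not stated in the labels. The table holds no counts, so depth is unknown and no counting error can be given. Approximate relative depths from the smallest steps among low values ranged from 0.768 to 1.45 over the 8 libraries, read from 10.1% to 14.1% of low genes.

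Loci on the Y chromosome and mitochondrial genome were left out. Genes that reached 1 RPKM in 2 or more of the 8 libraries were tested on log2(RPKM + 1) with limma 3.58.1 in R 4.3.3 (cross plus XX or XY, trended empirical Bayes, Benjamini-Hochberg adjustment over all genes tested, threshold 0.05). The dependence on sex chromosomes was an interaction term, and the serum libraries were fitted alone. Python 3.11.15 with pandas 2.3.3, numpy 2.4.6, scipy 1.17.1 and matplotlib 3.10.9 did the rest. The fit was tested on simulated data.

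Named genes were a checked set, the 12 most raised and 12 most lowered called genes without overlap and with at least 5 RPKM in the higher cross, and 4 each of those with predicted-gene names. To these came up to 4 called members of each list, up to 6 genes from the sex chromosome test and up to 6 loci listed at 0 in each cross. A name at several loci stands for the locus with the highest mean. Other genes given here are list members, or were picked after their values were seen as neighbours, parent genes, members of runs or examples of the sex chromosome test. The libraries, gene lists and rules were chosen with earlier results of these data known. Alternatives were the pseudocount, filter, scaling, sex term, sets of libraries and each line left out.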

Additional observations from a re-analysis of the deposited data

Results flagged for a closer look

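Lines that stood apart within their cross were sought in 316 sets of 4 values with Dixon's criterion at the 95% level. The sets were the 158 genes named by rule, in each cross. It marked 16, and chance marks about 1 in 20 sets, so the marks are given as values only. Among the 129/MSM lines, XX line 15 was high for Tdgf1 at 869 RPKM and low for Id3 at 3.71 RPKM, and it read 1.03 RPKM for Hist1h4f. XY line 20 read 0.609 RPKM for Pcmtd2 and 104 RPKM for Psma5. XY line 23 read 11.02 RPKM for Zfp934 and 16.2 RPKM for Slc37a1. Among the 129/B6 lines, XX line c3 read 8.45 RPKM for H2-D1 and XX line c4 read 137 RPKM for Wsb1. XY line c2 read 1.996 RPKM for T, 1.36 RPKM for H2-T23, 7.67 RPKM for H2-T3 and 4.56 RPKM for Slc37a1. XY line c6 read 1.28 RPKM for Col4a1, 9.67 RPKM for Klf6 and 0 RPKM for Pgk1-rs7, where the other 3 lines were at most 0.0462 RPKM and close to 0 as well.

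In 7 of the 158 genes named by rule the cross difference itself differed between XX and XY lines (limma interaction term, Benjamini-Hochberg adjustment). Dppa2, Klhl13 and Khdc3, given above and not named by rule, were called by it too. Up to 6 genes were named because this same test called them, so the 7 give it no support. Over all genes tested it called 39 of 12324 (0.316%). The XX difference less the XY difference was 5.58 log2 units in Pgk1-rs7, 3.81 in 1700016D06Rik, 3.43 in Calb2, -2.31 in Ubd, -3.07 in H2-Eb1, -3.22 in Cd3d and -3.60 in Cd3g. 1700016D06Rik read 56.8, 43.3, 14.6 and 17.5 RPKM in the 129/MSM lines and 2.05, 2.68, 13.4 and 16.2 RPKM in the 129/B6 lines, in the order of lines used above.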

How the results depend on the processing

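Of 2117 genes called in 2i, the count was 738 (431 higher, 307 lower) with no sex chromosome term. With 2 lines a cross in each, it was 271 (168 and 103) in the XX lines alone and 1423 (802 and 621) in the XY lines alone. It ranged from 1093 to 2555 when each line was left out, the former without c4 and the latter without line 15. The 39 genes of the sex chromosome test ranged from 3 to 89, and the serum count of 4685 from 2578 to 4273. Under the other alternatives the 2i count was 1813 (no filter), 1976 (at least 4 libraries), 2008 (quantile), 2091 (median scaling), 2110 (pseudocount 0.1), 2479 (1 mean for each cross and sex chromosome set) or 2961 (all 26 libraries). The median difference of all genes, 0.02 log2 units, became -0.0062 after quantile normalization and 0.04 after median scaling.

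Of 141 named genes called, 94 were no longer called in the XX lines alone, 54 with no sex term, 32 in the XY lines alone, 23 without the filter and 11 after quantile normalization, while 104 kept their call whichever line was left out. Many of the 141 were named for a large difference in these same lines, so the 104 do not speak for all calls. Of all 2117 calls, 1070 were met again without c4 and 1852 without line 15. Reversals were met in 11 named genes, none of them called with all 8 lines. In the XY lines alone the difference was -0.069 for Pou5f1, -0.034 for Dnmt1, 0.095 for Uhrf1, 0.048 for Dppa3, -0.37 for Dazl, -0.23 for Nnt and 0.15 for Cd3d. In the XX lines alone it was -0.23 for Dnmt3l, -0.13 for Tet1 and 0.90 for Calb2. Quantile normalization gave 0.048 for Uhrf1. With each line left out, ranges crossed 0 for Pou5f1 (-0.032 to 0.088), Klf4 (-0.056 to 0.31), Dnmt1 (-0.090 to 0.099), Uhrf1 (-0.18 to 0.026), Dppa3 (-0.28 to 0.092) and Nnt (-0.080 to 0.19). The cause of these changes was not tested.

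No paired analysis was possible because line numbers only name the lines, and the crosses share no more than 1 number.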
